A study of Solanum lycopersicum with 36 samples.

Results

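The 4 genes described here are the amino acid metabolism genes that the study names by identifier, chosen by those identifiers alone out of 32246 genes measured. They are a glutamate decarboxylase (GAD, LOC544313), ArgJ (LOC101265059), NADH glutamate synthase 1 of the chloroplast (NADH-GOGAT, LOC101254281) and S-adenosylmethionine synthase 2 (SAM2, LOC101247506). In the deposited table their gene IDs are, in that order, '544313', '101265059', '101254281' and '101247506'. The reference table lists GAD and LeGAD1 as other names of the first and SAMS1 as another name of the last, and the names of the other pair come from the study. The study picked these genes with the same libraries in hand, so the direction of their changes is not independent evidence.

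Leaves were taken from grafted seedlings (GSs) and nongrafted seedlings (NGSs, on their own roots) of tomato at 0, 6, 12, 24, 48 and 96 h of 175 mM NaCl in hydroponic culture. Each of the 12 groups held 3 libraries, stated to be biological replicates. The materials were Zhongza 9, a salt-sensitive variety, and QZ-006, a salt-tolerant rootstock, joined by split grafting. The GSs and NGSs at 0 h had no NaCl and served as the control of their own type of seedling, and no unsalted leaf of a later time is analysed here, so time in salt cannot be told apart from time in culture. A single morning hour is given for the sampling, which the samples of 0, 6 and 12 h of 1 course cannot share, so the hour of the day of each group is unclear. No self-grafted seedling is analysed either, so the rootstock and the graft itself cannot be told apart.

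Glutamate is the hub of amino acid synthesis in leaves. Glutamine synthetase and glutamate synthase take up ammonium, and NADH-GOGAT is the form of glutamate synthase that draws on NADH in place of ferredoxin. GAD removes the carboxyl group of glutamate to give γ-aminobutyric acid (GABA), which accumulates in many plants under stress and is broken down in the mitochondria by the GABA shunt. ArgJ, named after the bacterial enzyme, moves an acetyl group between ornithine and glutamate on the way to arginine, the source of polyamines. SAM2 joins methionine to ATP and so makes S-adenosylmethionine, the donor of most methyl groups and the precursor of ethylene.

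Expression is given in FPKM, reads per kilobase of gene divided by a factor of the library, a unit inferred from the deposited values. The reads behind these values could be recovered and came to between 15229640 and 26661418 per library on all genes. The library factor did not simply follow these totals. Total reads over the factor ran from 75.0% to 126% of the geometric mean over the libraries. The NGS libraries of 0 h were the shallowest, with 15229640 to 18403172 reads against at least 19497776 in every other group. GAD was covered by 175 to 13481 reads per library, ArgJ by 260 to 1221, NADH-GOGAT by 404 to 12095 and SAM2 by 936 to 17799, so that none was near the detection limit. All 4 passed the filter of 1 FPKM in at least 3 libraries, as did 20090 genes in all. The 7 leaf markers examined were detected in every library and the 4 fruit markers stayed at or under 0.062 FPKM. The leaf markers moved widely, Cab-3C, of the light-harvesting complex, from 1.21 to 2224 FPKM, and the part of this in the results below was not tested. In bulk leaf tissue, fewer cells of a type and less RNA per cell cannot be told apart.

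The question of the first comparison is how each gene moved from 0 h in salt. GAD was upregulated at every time point in both types of seedling. The other genes were mostly downregulated until 48 h in NGSs. In GSs, all 3 of them were downregulated at 6 h but only 1 at each of 12, 24 and 48 h. At 96 h, NADH-GOGAT and SAM2 were upregulated in GSs. A gene is called upregulated or downregulated here where the difference in log2(FPKM + 1) is at least 1 and the adjusted p of the limma fit over all genes is under 0.05. Of the 40 tests, 31 were called, 12 of them higher and 19 lower. The share of all genes called in GSs was 23.3%, 16.4%, 7.24%, 11.6% and 13.6% over the 5 times from 6 to 96 h. Among the NGSs, it was 25.1%, 26.9%, 26.2%, 23.1% and 18.7% at the same times. The 31 calls of 40 were thus above these shares, in genes that were picked with these libraries in hand. The libraries of a group also scattered more widely for these genes than for most: the residual SD on the log2 scale was 0.49 for GAD, 0.44 for ArgJ, 0.48 for NADH-GOGAT and 0.54 for SAM2, against a median of 0.29 over all genes tested.

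**Figure D1:**
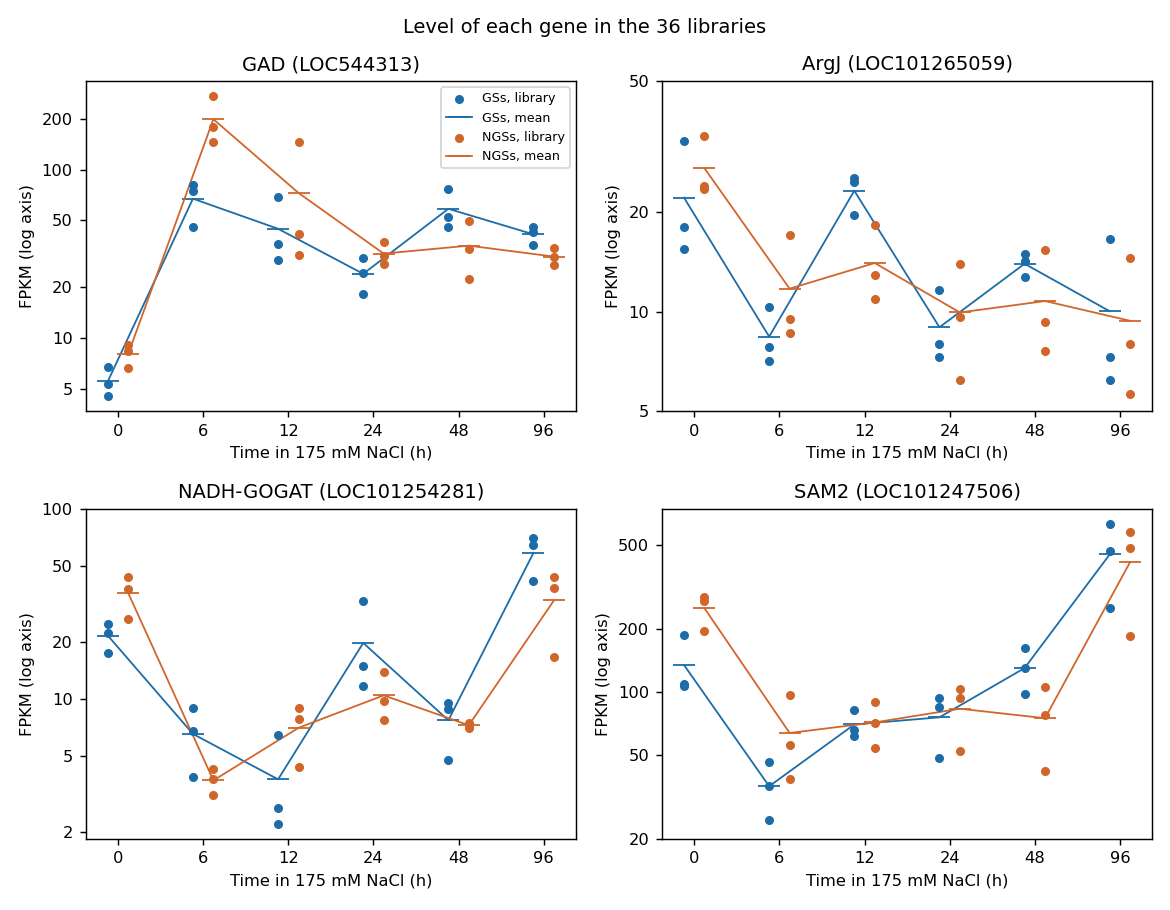
FPKM (log axis) of the 4 genes in the 36 libraries (points) and the mean of 3 libraries (dashes joined by lines) against the time in 175 mM NaCl, in GSs (blue) and NGSs (orange). GAD is lowest at 0 h and highest in NGSs at 6 h, at 146 to 274 FPKM, whereas NADH-GOGAT and SAM2 dip after 0 h and are high again at 96 h.

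GAD, the branch from glutamate to GABA, was scarce before salt. In the GSs at 0 h, the libraries held 4.52, 5.33 and 6.73 FPKM, and in NGSs 6.64, 8.43 and 9.11 FPKM. No library in salt came near these values. After 6 h, the GSs held 45.8, 75.0 and 80.8 FPKM and the NGSs 146, 274 and 178 FPKM. Each NGS library of 6 h thus lay above each GS library. After 12 h, the GSs were at 36.2, 68.5 and 28.9 FPKM and the NGSs at 145, 41.7 and 31.2 FPKM, and a single NGS library stood far above its companions. At 24 h, the levels were 29.7, 18.2 and 24.3 FPKM in GSs, the lowest mean of the GSs in salt, and 27.7, 37.0 and 30.5 FPKM in NGSs. At 48 h, the GSs held 45.8, 77.1 and 52.6 FPKM and the NGSs 49.9, 33.8 and 22.4 FPKM. At 96 h, they were at 45.6, 42.4 and 35.9 FPKM and at 30.3, 27.0 and 34.0 FPKM, and the GS libraries lay above the NGS libraries.

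From 0 h, GAD rose by 3.36 (SE 0.39, adjusted p = 8.24e-08) on the log2 scale at 6 h in GSs, a 10.3-fold change, and by 4.43 (SE 0.39, adjusted p = 6.02e-10) in NGSs, a 21.5-fold change. In the GSs it was higher than at 0 h by 2.72, 1.93, 3.17 and 2.70 at 12, 24, 48 and 96 h, and in NGSs by 2.70, 1.85, 1.94 and 1.80. All 10 differences were called, with adjusted p of at most 0.0017, and remained called without any single library and in each alternative fitted for them. Of all genes tested, 34 (0.169%) were called higher in all 10 comparisons. The NGS value of 12 h leaned on the library at 145 FPKM and was 2.04 without it. In the order of the 12 group means, both groups of 0 h came lowest and the NGSs at 6 h, at 199 ± 66.3 (SD, n = 3), highest. These ends were separated from their neighbours by gaps, while the 9 other pairs of neighbours overlapped. The upper gap was very narrow, between the NGS library of 12 h at 145 FPKM and the lowest NGS library of 6 h at 146 FPKM.

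ArgJ, which serves the arginine branch, had the smallest of the 4 genes' largest differences from 0 h, -1.51. At 0 h, the GSs held 32.9, 15.5 and 18.1 FPKM and the NGSs 34.1, 24.1 and 23.5 FPKM, so 1 GS library was at about the level of the highest NGS library. At 6 h, the values were 7.10, 7.81 and 10.3 FPKM in GSs and 17.0, 8.65 and 9.53 FPKM in NGSs. All of the libraries of 6 h, except the NGS library at 17.0, were below every library of 0 h. At 12 h, the GSs were back at 24.8, 19.7 and 25.3 FPKM, and the NGSs were at 12.9, 10.9 and 18.3 FPKM. The GS libraries of 12 h lay above those of the NGSs and within the range of 0 h. At 24 h, the GSs held 11.6, 7.28 and 8.0 FPKM and the NGSs 14, 9.65 and 6.20 FPKM. At 48 h, the GSs held 14.9, 14.3 and 12.7 FPKM and the NGSs 9.33, 7.58 and 15.4 FPKM. At 96 h, the values were 6.20, 7.27 and 16.6 FPKM and 5.64, 14.5 and 8.0 FPKM, each with a single library well above the rest.

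In the GSs, ArgJ was downregulated at 6, 24 and 96 h, with log2 differences of -1.24 (SE 0.35, adjusted p = 0.00515), -1.17 (adjusted p = 0.0233) and -1.12 (adjusted p = 0.017). The GS differences of 12 and 48 h, 0.13 (95% interval -0.58 to 0.84) and -0.56 (-1.27 to 0.15), were not called. It was downregulated in NGSs at 6, 24, 48 and 96 h, with differences of -1.18, -1.41, -1.30 and -1.51 and adjusted p from 0.00126 to 0.00619, and the -0.92 of 12 h (adjusted p = 0.0291) was too small to be called. Without the GS library of 0 h at 32.9 FPKM, none of the 3 GS calls was left (-0.93, -0.86 and -0.80, adjusted p = 0.0553, 0.178 and 0.125). The call of 96 h was also lost without the GS library at 6.20 or that at 7.27 FPKM (adjusted p = 0.112 and 0.0806), and that of 24 h without the library at 7.28 or that at 8.0 FPKM (adjusted p = 0.0834 and 0.0891). All 11 pairs of neighbours in the order of the group means, from 8.41 ± 1.69 in GSs at 6 h to 27.2 ± 5.97 in NGSs at 0 h, overlapped.

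NADH-GOGAT, which makes glutamate from glutamine, fell early and came back late. At 0 h, the GSs held 22.3, 24.8 and 17.5 FPKM and the NGSs 37.9, 43.5 and 26.4 FPKM, and every NGS library was above every GS library. At 6 h, the GSs were at 6.78, 8.95 and 3.86 FPKM and the NGSs at 3.79, 4.26 and 3.10 FPKM. At 12 h, the GSs were at 2.18, 6.47 and 2.65 FPKM and the NGSs at 8.94, 7.78 and 4.36 FPKM. All 12 libraries of these time points lay below the lowest library of 0 h. At 24 h, the GSs spread over 11.6, 32.6 and 14.8 FPKM, while the NGSs were at 9.78, 7.72 and 13.7 FPKM. At 48 h, the GSs held 9.53, 8.81 and 4.77 FPKM, and the NGSs were very close together at 7.03, 7.47 and 7.25 FPKM. At 96 h, the GSs reached 64.2, 69.7 and 41.9 FPKM, above all of their earlier libraries. The NGSs of 96 h were at 43.7, 16.6 and 38.5 FPKM, and the library at 16.6 lay below the range of 0 h.

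On the log2 scale, NADH-GOGAT changed by -1.63 (SE 0.38, adjusted p = 0.00097), -2.33 (adjusted p = 1.66e-05) and -1.40 (adjusted p = 0.00659) at 6, 12 and 48 h in GSs, and rose by 1.39 (SE 0.38, adjusted p = 0.00678) at 96 h. The GS difference of 24 h was -0.24 (95% interval -1.01 to 0.53). In the NGSs it fell by 2.95 (SE 0.38, adjusted p = 3.76e-07) at 6 h, a 7.72-fold change, and its differences at 12, 24 and 48 h were -2.22, -1.70 and -2.13, with adjusted p from 2.09e-05 to 0.000523. At 96 h, the NGS difference was -0.20 (-0.97 to 0.57) and was not called. Without the GS library of 48 h at 4.77 FPKM, the fall of 48 h was just short of a call (-1.13, adjusted p = 0.0525). The group means ran from 3.72 ± 0.582 in NGSs at 6 h to 58.6 ± 14.7 in GSs at 96 h (SD, n = 3), with all 11 pairs of neighbours overlapping.

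SAM2, the enzyme that supplies S-adenosylmethionine, had the highest median over the 36 libraries, 95.5 FPKM, although the mean of GAD was above that of SAM2 at 6 h in both types of seedling and at 12 h in NGSs. At 0 h, the GSs held 187, 107 and 109 FPKM and the NGSs 196, 272 and 285 FPKM, so the NGSs started above the GSs. At 6 h, the GSs were at 24.7, 46.2 and 35.9 FPKM and the NGSs at 38.7, 55.7 and 97.2 FPKM. All 6 libraries were below those of 0 h. At 12 h, the GSs held 61.8, 66.0 and 82.5 FPKM and the NGSs 54.0, 71.2 and 90.0 FPKM. At 24 h, the GSs held 48.6, 85.4 and 93.5 FPKM and the NGSs 52.5, 93.9 and 104 FPKM. The GSs and NGSs covered much the same range at both times. At 48 h, the GSs had returned to 162, 97.8 and 130 FPKM, and the NGSs were still at 77.6, 42.3 and 105 FPKM. At 96 h, the levels reached 252, 472 and 635 FPKM in GSs and 185, 579 and 487 FPKM in NGSs, with the widest spread of any time point.

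In the GSs, SAM2 fell by 1.88 (SE 0.42, adjusted p = 0.000662) at 6 h and rose by 1.69 (SE 0.42, adjusted p = 0.00338) at 96 h on the log2 scale. The GS differences of 12, 24 and 48 h were -0.89 (95% interval -1.75 to -0.04), -0.82 (-1.68 to 0.03) and -0.03 (-0.89 to 0.83), and none was called. It was downregulated in NGSs at 6, 12, 24 and 48 h, with differences of -2.04, -1.80, -1.62 and -1.80 and adjusted p from 0.000232 to 0.00217. The NGS difference of 96 h, 0.59 (-0.27 to 1.45), was not called. It was called without the NGS library at 185 FPKM (1.10, adjusted p = 0.0477). The group means ran from 35.6 ± 10.8 in GSs at 6 h to 453 ± 193 in GSs at 96 h (SD, n = 3). Of the 11 pairs of neighbours in this order 10 overlapped, and the gap lay between the GSs and the NGSs of 0 h.

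**Figure D2:**
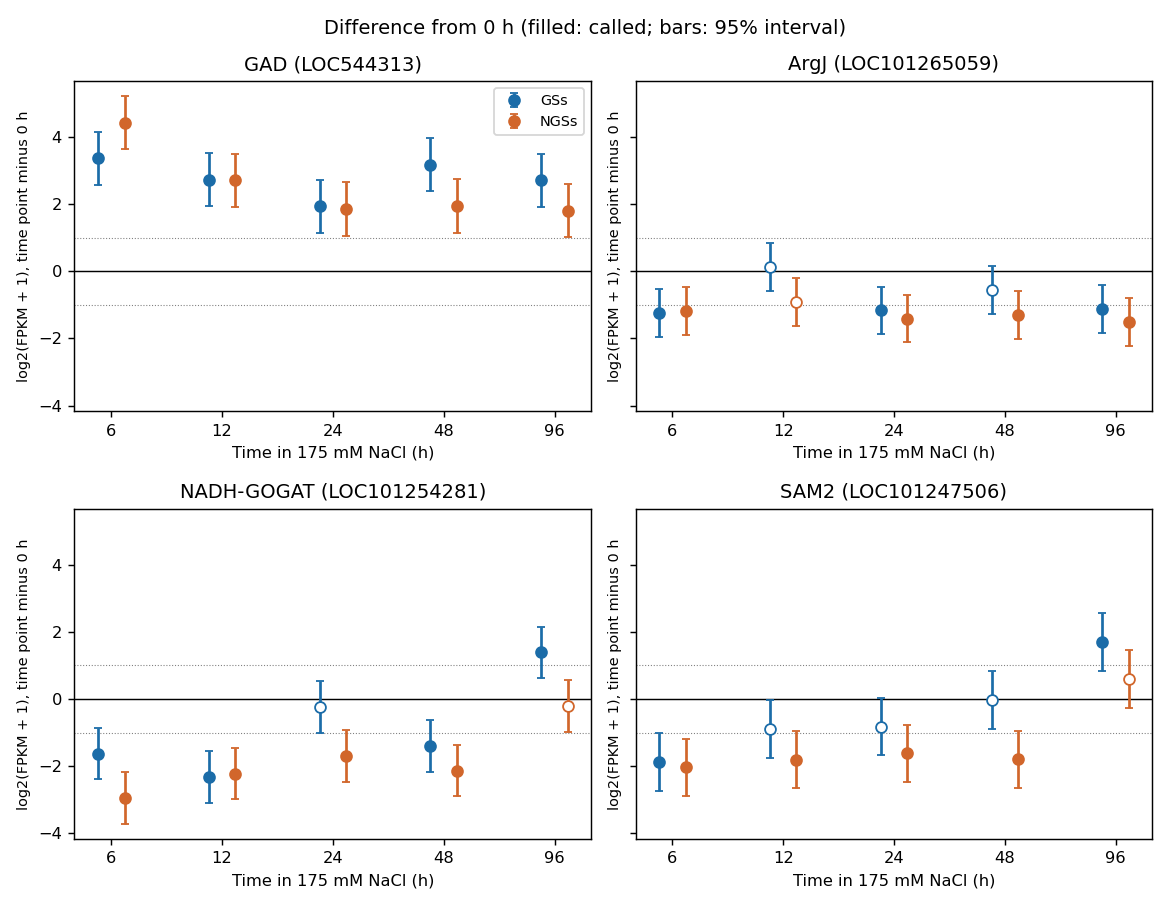
Difference of log2(FPKM + 1) from 0 h (y axis) at each time in 175 mM NaCl (x axis) for the 4 genes, with its 95% interval, in GSs (blue) and NGSs (orange). Filled points are called, dotted lines mark a difference of 1, and all 10 points of GAD are filled and lie above 0.

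The GSs were compared with the NGSs at the same time point to see where the levels of the 2 types of seedling differed. Of 24 tests of the 4 genes, 1 was called: GAD was lower in GSs at 6 h, with a difference of -1.55 (SE 0.39, 95% interval -2.34 to -0.75, adjusted p = 0.0151), or 2.92-fold, with no overlap of the libraries. The same difference was not called without the GS library at 45.8 FPKM (-1.29, adjusted p = 0.114), without the NGS library at 274 FPKM (-1.29, adjusted p = 0.0503) or with the spread taken from these 6 libraries alone (adjusted p = 0.107). The share of all genes called between the GSs and NGSs was 5.07%, 4.4%, 0.0448%, 0.0249%, 0.0498% and 0.00996% in the order of the time points from 0 h. For scale, at 12 to 96 h almost no gene of any kind was called. At 0 h, the differences of SAM2 and NADH-GOGAT were -0.92 (interval -1.78 to -0.07, adjusted p = 0.14) and -0.70 (-1.47 to 0.07, adjusted p = 0.223), with no overlap of the libraries. NADH-GOGAT differed by -0.81 (-1.58 to -0.04, adjusted p = 0.264) at 12 h and by 0.89 (0.12 to 1.66, adjusted p = 1.0) at 96 h, SAM2 by 0.85 (-0.01 to 1.71) and GAD by 0.75 (-0.04 to 1.54) at 48 h. The 23 differences that were not called lay between -0.92 and 0.89, and their intervals reached from -1.78 to 1.71, so that differences of more than 1 in either direction remain possible for several of them.

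**Figure D3:**
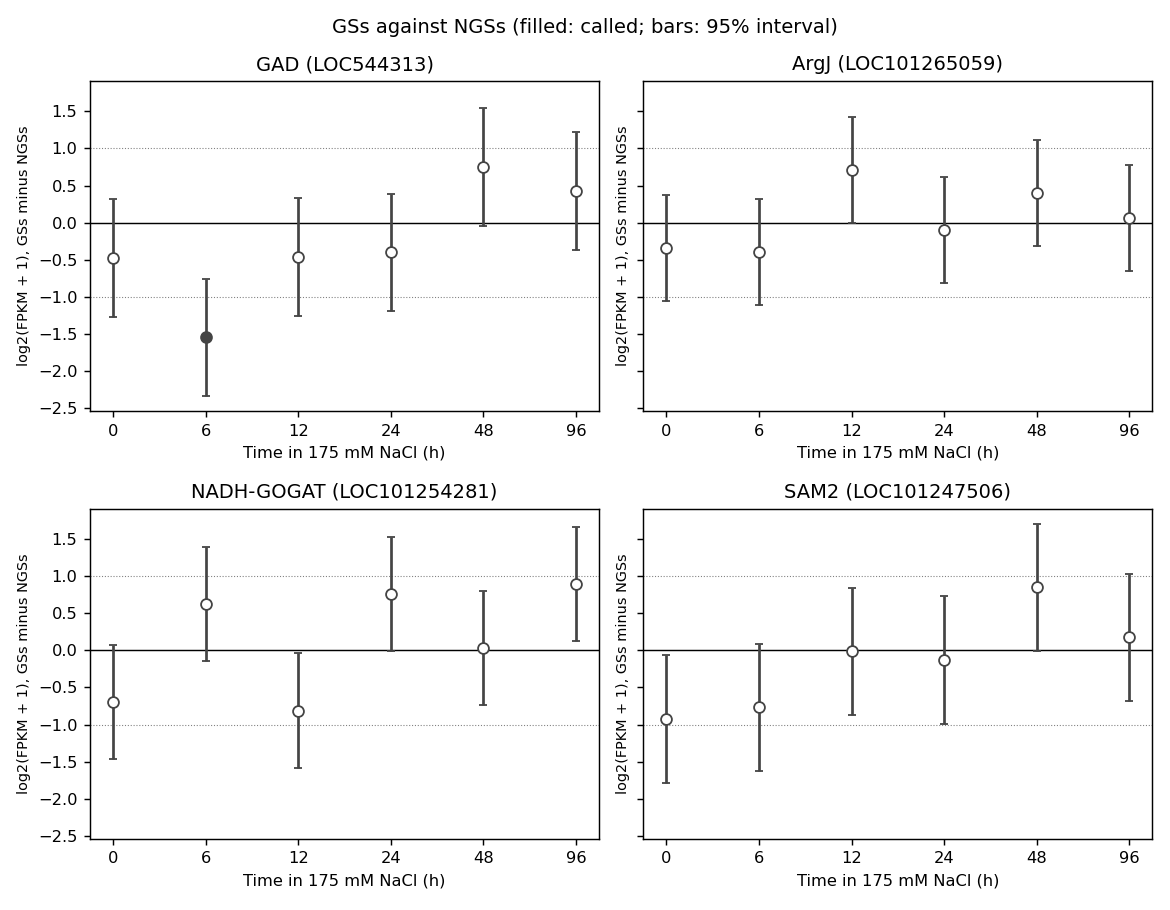
Difference of log2(FPKM + 1) between GSs and NGSs (y axis, GSs minus NGSs) at 0 to 96 h in 175 mM NaCl (x axis) for the 4 genes, with its 95% interval. The filled point, GAD at 6 h at -1.55, is the call among 24 tests, and most other intervals span 0.

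Whether the response from 0 h differed between the GSs and NGSs was tested as such. None of the 20 tests was called, although 6 had an unadjusted p under 0.05. Among all genes, 4.91%, 6.44%, 4.61%, 5.89% and 0.254% were called over the 5 times from 6 to 96 h. The nearest to a call was SAM2 at 48 h, whose response was higher in GSs by 1.77 (SE 0.59, interval 0.56 to 2.99, adjusted p = 0.0589), after a GS value of -0.03 and an NGS value of -1.80. This difference passed the test without the GS library of 0 h at 187 FPKM (2.04, adjusted p = 0.0386), without the NGS library of 48 h at 105 FPKM (2.06, adjusted p = 0.0325) and with the spread of the compared libraries alone (adjusted p = 0.0476). NADH-GOGAT had the other large values, 1.32 at 6 h (adjusted p = 0.124), 1.46 at 24 h (adjusted p = 0.0913) and 1.59 at 96 h (adjusted p = 0.159), each higher in GSs. For GAD they were -1.07 at 6 h (adjusted p = 0.233) and 1.22 at 48 h (adjusted p = 0.153), and for ArgJ 1.05 at 12 h (adjusted p = 0.162). The GSs and NGSs thus showed calls at different times for SAM2, NADH-GOGAT and ArgJ without a called difference between their responses, and the intervals of all 20 differences together ran from -2.19 to 2.99.

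Consecutive time points show when the levels turned, and 10 of 32 such tests were called. ArgJ rose by 1.37 (adjusted p = 0.00342) from 6 to 12 h in GSs and fell by 1.30 (adjusted p = 0.00402) from 12 to 24 h. NADH-GOGAT rose by 2.09 (adjusted p = 7.24e-05) from 12 to 24 h in GSs, fell by 1.2 (adjusted p = 0.0336) from 24 to 48 h and rose by 2.79 (adjusted p = 2.21e-05) from 48 to 96 h. GAD rose by 1.24 (adjusted p = 0.0281) from 24 to 48 h in GSs, and SAM2 rose by 1.72 (adjusted p = 0.00454) from 48 to 96 h. In the NGSs, GAD fell by 1.72 (adjusted p = 0.0043) from 6 to 12 h, and from 48 to 96 h NADH-GOGAT rose by 1.93 (adjusted p = 0.000487) and SAM2 by 2.39 (adjusted p = 0.000177). The rise of NADH-GOGAT and SAM2 after 48 h was therefore called in both types of seedling. The share of all genes called was 15.6%, 17.9%, 6.68% and 7.24% over the 4 GS steps from 6 h to 96 h and 4.15%, 14.7%, 5.25% and 9.29% over the NGS steps. Both GS calls between 24 and 48 h were lost without GS library 8 or 9 of 24 h or 11 or 12 of 48 h, with adjusted p from 0.058 to 0.116 for GAD and from 0.0507 to 0.207 for NADH-GOGAT. Without the GS library of 24 h at 32.6 FPKM, the step of NADH-GOGAT was -0.75 (adjusted p = 0.207), and with the spread of the compared libraries alone the NGS step of GAD from 6 to 12 h had an adjusted p of 0.251. That step was -2.38 without the NGS library of 12 h at 145 FPKM.

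GAD is 1 of 4 glutamate decarboxylase genes of the reference table, the others being GAD2, GAD3 and LOC101251185, also listed as SlGAD4. The last of these was at or under 0.0704 FPKM in every library. FPKM is a level per length, so the levels of these genes can be set side by side, although how reads shared by similar genes were counted is not given in the sources used here. Before salt, GAD made up 3.82% ± 0.273 (SD, n = 3) of their summed FPKM in GSs and 3.54% ± 0.211 in NGSs, and GAD2 made up 92.5% ± 2.14 and 94.7% ± 0.768. At 6 h the share of GAD was 13.2% ± 4.5 in GSs and 39.1% ± 3.67 in NGSs, and the libraries did not overlap. The summed FPKM of the 4 genes was nevertheless close at 6 h, 518 ± 43.7 in GSs and 504 ± 124 in NGSs. At 48 h the share was 32.8% ± 0.670 in GSs, and in NGSs it ranged from 15.0% to 36.1%.

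GAD2 moved differently from GAD. In the GSs, it rose by 1.73 at 6 h and by 1.21 at 12 h, from 135 ± 30.4 FPKM at 0 h to 444 ± 56.9 and 309 ± 48.8 FPKM, and none of its NGS differences was called. Its response at 6 h was higher in GSs by 1.29 (adjusted p = 0.0417), while the response of GAD, at -1.07, was not called. The call of GAD2 was lost without a filter (adjusted p = 0.0538), with the libraries compared alone (0.0609) and without any of 8 single libraries (0.051 to 0.109). GAD3, from 3.93 ± 1.30 FPKM at 0 h, rose by 1.21, 1.29 and 1.24 at 12, 24 and 48 h in NGSs. None of its GS differences was called, and the difference between the GSs and NGSs was not called.

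SAM2 shared its role with SAM1 and SAM3. SAM2 made up 33.7% ± 7.39 of their summed FPKM in GSs and 38.8% ± 3.45 in NGSs at 0 h. At 6 h this was 11.5% ± 4.77 and 11.8% ± 4.98, and SAM1 made up 72.7% ± 11.7 and 80.0% ± 6.59. At 96 h SAM2 had the largest share, 53.1% ± 10.8 and 50.9% ± 15.4, and SAM1 was at 23.1% ± 6.73 and 22.0% ± 9.99. The SAM2 shares of the GSs and NGSs overlapped at every time except 48 h, when SAM2 was at 22.2% to 28.1% in GSs and at 11.2% to 16.1% in NGSs. The SAM1 shares did not overlap at 48 h, nor at 12 h, at 77.8% to 82.7% in GSs and 75.5% to 76.9% in NGSs. SAM1 had 1 call from 0 h, a rise of 1.29 in GSs at 12 h. SAM3, named here after its values were seen, was downregulated at 6, 12 and 24 h in NGSs (-1.44, -1.19 and -1.44) and rose by 1.11 and 1.74 at 48 and 96 h in GSs. The response of SAM3 was higher in GSs by 1.47 at 24 h (adjusted p = 0.0463) and by 1.79 at 48 h (adjusted p = 0.0174), the time at which SAM2 came nearest to such a call. Both calls were lost with the libraries compared alone (adjusted p = 0.0927 and 0.0513) and without some single libraries (up to 0.127 and 0.0794).

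**Figure D4:**
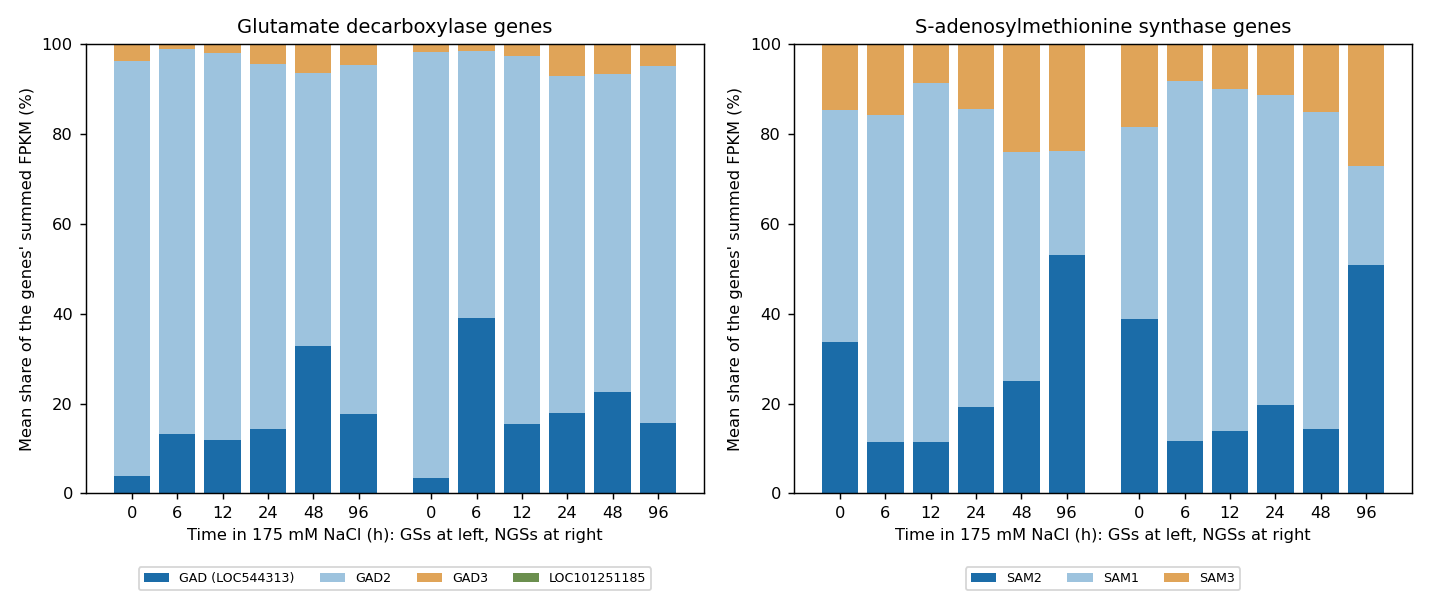
Mean share (y axis, % of the summed FPKM, 3 libraries) of each glutamate decarboxylase gene (left) and each S-adenosylmethionine synthase gene (right) at 0 to 96 h in 175 mM NaCl, GSs then NGSs along the x axis. GAD takes 39.1% in NGSs at 6 h against 13.2% in GSs, and SAM2 goes from about 11.5% at 6 h to 53.1% at 96 h in GSs.

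The neighbouring pathways were followed through 42 further genes matched by symbol, of which 37 passed the filter. Counted over these 37, the genes called higher and lower in GSs were 7 and 8, 3 and 9, 1 and 3, 4 and 5, and 9 and 1 over the 5 times from 6 to 96 h. Among the NGSs they were 2 and 7, 3 and 11, 7 and 2, 6 and 4, and 8 and 0. The share of the 37 called, in either direction, was 40.5%, 32.4%, 10.8%, 24.3% and 27.0% in GSs, above the 23.3%, 16.4%, 7.24%, 11.6% and 13.6% of all genes. In NGSs it was 24.3%, 37.8%, 24.3%, 27.0% and 21.6%, against 25.1%, 26.9%, 26.2%, 23.1% and 18.7% of all genes, and so near the background except at 12 h. The median difference over the 37 genes was between -0.19 and 0.36 in all 10 comparisons, against -0.04 to 0.02 over all genes. Both directions were thus present within the pathways.

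Around NADH-GOGAT, 6 genes of nitrate assimilation and of glutamate and glutamine synthesis were tested. In GSs, 4 fell and 1, gdh1, rose at 6 h and 2 fell at 12 h, and in NGSs 3 fell at 6 h and 4 at 12 h. Of all genes, 13% and 8.66% were called lower in GSs at these times and 15.2% and 16.9% in NGSs. The share of all genes called higher in GSs at 6 h was 10.3%. At 24 and 48 h, gts1 was called lower in both types of seedling. Besides it, nii1 was called lower in GSs at 24 h and LOC100736473 higher in NGSs at 48 h. LOC100736473, listed as NIA, the nitrate reductase that begins nitrate assimilation, was downregulated at 6 and 12 h, with differences of -5.21 and -4.60 in GSs and -3.64 and -3.92 in NGSs. Its level went from 646 ± 49.2 to 17.0 ± 5.50 FPKM in GSs at 6 h. At 6 h, nii1, the nitrite reductase that follows, was lower by a difference of -4.14 in GSs and -1.78 in NGSs, and gts1, a glutamine synthetase, by -2.15 and -1.47. At 96 h none of the 6 was called in either type of seedling, while NADH-GOGAT was high in GSs. AS1, asparagine synthetase, which passes nitrogen from glutamine to asparagine, rose by 5.52 in GSs and 4.99 in NGSs at 6 h, with libraries from 45.3 to 278 FPKM and from 18.2 to 254 FPKM against at most 3.03 FPKM at 0 h.

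Beyond GAD in the GABA shunt, 6 genes were tested, GAD2 and GAD3 among them, and 0 to 2 of them (up to 33.3%) were called at each time point, against 7.24% to 26.9% of all genes. GABA-TP1, a transaminase that breaks down GABA, rose by 1.34 in GSs at 96 h and by 1.63 and 1.52 in NGSs at 24 and 96 h. Other GABA transaminases, named here after their values were seen, were called lower in GSs, GABA-TP2 by a difference of -2.60 at 6 h and -2.74 at 96 h and GABA-TP3 of -1.13 at 48 h. The GS libraries of GABA-TP2 at 0 h were far apart, at 123, 180 and 804 FPKM. Its mean at 96 h was 41.4 FPKM in GSs and 41.3 in NGSs, and that of GABA-TP3 at 48 h was 15.2 and 15.3. Neither gene was called between GSs and NGSs or in the test of the responses. At 6 h, when GAD was at its highest in NGSs, none of the 6 was called there.

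Around ArgJ, the genes that use arginine moved in both directions. ARG1, an arginase, which splits arginine, rose by 1.84 in GSs at 6 h and by 2.40, 1.76, 2.45 and 2.53 in NGSs at 6, 12, 24 and 48 h. ARG2, also an arginase and named here after its values were seen, went the other way in NGSs. It was called lower there at 12 h, at 2.95 ± 1.85 FPKM against 25.3 ± 17.0 FPKM at 0 h (SD, n = 3), and at no other time. ADC, arginine decarboxylase, the first step from arginine to polyamines, fell by 1.55 in GSs at 12 h and rose by 1.36 at 96 h, and in NGSs it rose by 1.35 at 48 h and 2.56 at 96 h. adc1, matched by its symbol alone, was downregulated in GSs at 6 and 12 h (-1.89 and -2.15) and rose at 96 h by 1.42 in GSs and 2.41 in NGSs. Of the 12 genes of arginine, proline and polyamine synthesis tested, those called higher and lower were 1 and 1, 0 and 4, 0 and 1, 0 and 2, and 2 and 0 in GSs over the 5 times and 1 and 1, 1 and 2, 1 and 0, 3 and 2, and 3 and 0 in NGSs. The share called in GSs was 16.7%, 33.3%, 8.33%, 16.7% and 16.7% over the 5 times. Among all genes it was 23.3%, 16.4%, 7.24%, 11.6% and 13.6%, so the list was under it at 6 h only. In NGSs the share was 16.7%, 25.0%, 8.33%, 41.7% and 25.0%. There it was 25.1%, 26.9%, 26.2%, 23.1% and 18.7% of all genes, so the list was above it at 48 and 96 h.

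Beside and downstream of SAM2, the ethylene genes split by step and by time. ACS1A, a synthase of the ethylene precursor ACC, rose in GSs by 2.21, 2.86, 4.0 and 3.86 at 12, 24, 48 and 96 h and in NGSs by 1.80, 1.73, 2.06 and 1.99. Its level was 0.871 ± 0.104 FPKM at 0 h and 29.1 ± 2.97 FPKM at 48 h in GSs. ACO4, an ACC oxidase, which releases ethylene, was downregulated at 6 and 12 h, with -1.72 and -2.70 in GSs and -1.78 and -2.16 in NGSs, and rose at 96 h by 1.41 and 1.69. EFE, another ACC oxidase, was downregulated at the same times, with -1.69 and -3.16 in GSs and -2.56 and -2.56 in NGSs. Of the 12 genes of this group tested, SAM1 and SAM3 among them, 6 rose and 0 fell at 96 h in GSs and 3 rose and 0 fell in NGSs. Of all genes, 9.17% in GSs and 9.25% in NGSs were called higher at 96 h. The 6 included ACS3 and ACS1B, with means of only 0.305 and 1.21 FPKM over the 36 libraries. So low a gene can pass the filter through the libraries where it is high, so the count is no independent evidence of a rise.

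Of the 78 called values of the pathway genes put through the alternatives, 43 stayed called under every alternative and without any single library. No alternative turned a sign. The calls of GABA-TP2, GABA-TP3 and ARG2 were not put through them gene by gene, so how far these hold was not tested. Among the values given above, the call was lost at least once for the responses of GAD2 and SAM3, GAD3 at all its times, SAM3 in NGSs at 12 h and in GSs at 48 h, gts1 in NGSs at 6 h, and GABA-TP1 at 96 h. It was also lost for ARG1 in GSs at 6 h, ADC except in NGSs at 96 h, adc1 in GSs at 96 h, ACS1A in NGSs and EFE in GSs at 6 h. The same held for gts1 at 48 h in both types of seedling and at 12 h in NGSs, nii1 in GSs at 24 h and LOC100736473 in NGSs at 48 h.

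**Figure D5:**
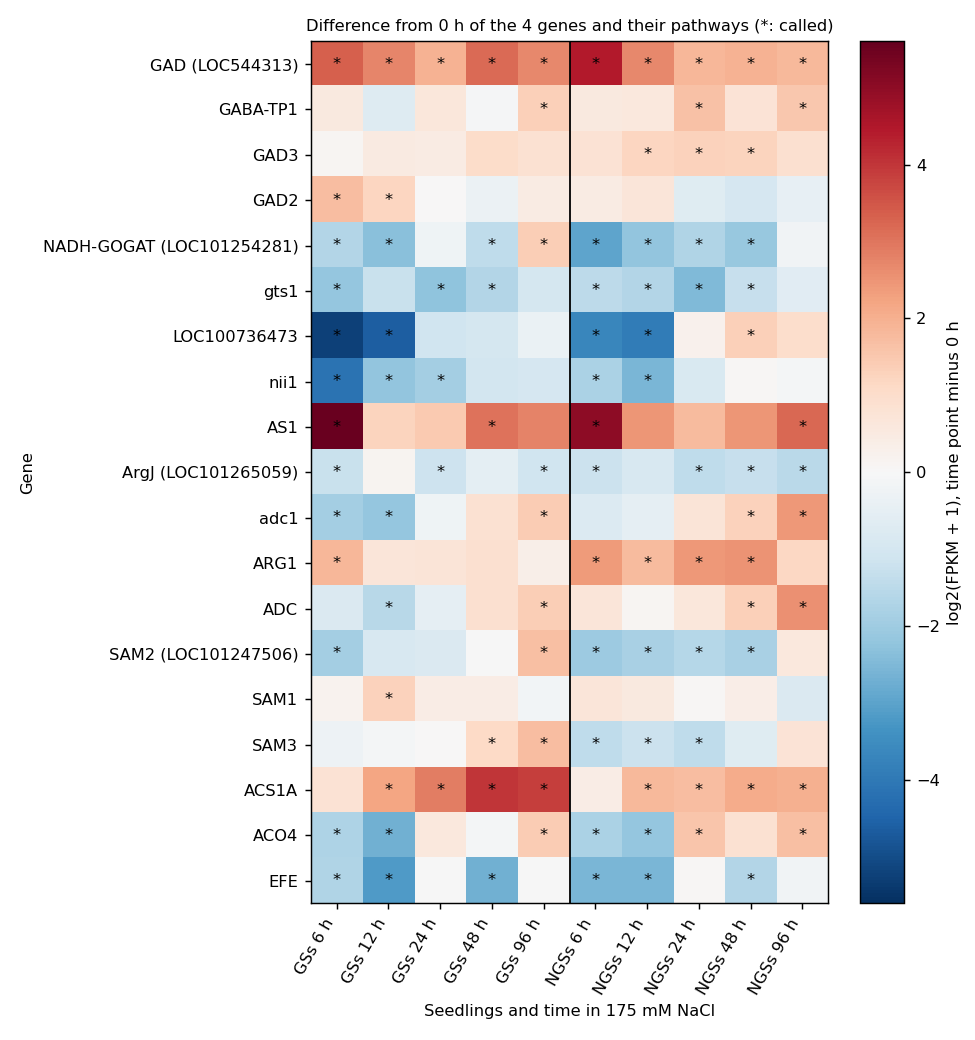
Difference of log2(FPKM + 1) from 0 h (colour) of the 4 genes and of named genes of their pathways (rows) at 6 to 96 h in 175 mM NaCl in GSs and NGSs (columns), with called differences starred. LOC100736473 reaches -5.21 and AS1 5.52 in GSs at 6 h, while GAD is starred in all 10 columns.

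Over the 12 group means, NADH-GOGAT and SAM2 went together (Pearson r = 0.85), and GAD ran against NADH-GOGAT (r = -0.61), ArgJ (r = -0.50) and SAM2 (r = -0.41). ArgJ had r = -0.03 with NADH-GOGAT and 0.11 with SAM2. These are descriptions, since the groups share their time course and the libraries of 0 h. After the group means were subtracted, the 36 libraries gave r = -0.19 for NADH-GOGAT with SAM2 and -0.51 for ArgJ with NADH-GOGAT, so the likeness of the first pair lay between groups and not between libraries of a group.

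Among the 1805 genes tested that carry a symbol (1804 for SAM2), those with the most similar course over the 12 group means were picked by Pearson r. For GAD these were HSP17.8, a small heat shock protein (r = 0.94), GRAS6, of the GRAS family of transcription factors (r = 0.89), and MLO2 (r = 0.87). For ArgJ they were NXD1 (r = 0.95), GH3-18 (r = 0.93) and FKBP16-1 (r = 0.92). NADH-GOGAT was followed by APX7, an ascorbate peroxidase (r = 0.94), ArcA2 (r = 0.94) and PCNA, the sliding clamp of DNA replication (r = 0.93). SAM2 was followed by F3H, flavanone 3-hydroxylase of flavonoid synthesis (r = 0.94), and by XTH1 and EXPA6, a xyloglucan-modifying enzyme and an expansin of the cell wall (both r = 0.93).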

How the data were processed

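RNA from the leaves of GSs and NGSs was sequenced by the authors on an Illumina instrument. Reads were mapped to the SL 2.0 genome with HISAT, and DEGs were called by the authors with DESeq. The submitters' processing notes list HISAT2 2.0.5, featureCounts 1.5.0-p3 and DESeq2 1.16.1. The annotation and the strandedness are not given in the sources used here. The values were deposited by the authors as FPKM, a unit inferred here from their form: each value could be written as a whole number of reads over a gene length and a library factor (100% of 837809 values above 0, tolerance 0.02). The value of 1 read was searched for in each gene so that its values came out whole, so this share follows in part from the search. The median difference of all genes tested from 0 h was between -0.04 and 0.02, so the group means of the deposited FPKM were centred much alike. Medians of single libraries were not compared.

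Genes of at least 1 FPKM in at least 3 of 36 libraries (20090) were fitted in limma 3.58.1 (R 4.3.3; lmFit, eBayes with trend) to log2(FPKM + 1) with 12 group means and 24 residual degrees of freedom, with Benjamini-Hochberg adjustment over the genes of each of 29 comparisons. Differences and folds are on this scale, which understates the change of low genes. The fit and the recovery of reads were tested on simulated data. Alternatives were a pseudocount of 0.1, no filter, the libraries compared alone, library totals as the scale, voom on recovered reads and each library left out. A replicate block was a further alternative, fitted only where groups shared replicate numbers. Tables and figures were made in Python 3.11.15 (pandas 2.3.3, NumPy 2.4.6, matplotlib 3.10.9).

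The members and gene lists were chosen with earlier results of these data known. Pathway genes were matched by whole symbol or older name; 5 that share a name with another gene (gad2, yfe37, CPS, ACO3 and AAT) were left out. At most 3 genes a list are named, those called in most of the 10 salt comparisons, with ties by mean FPKM, and for each of the 4 genes the 3 genes with a symbol of highest Pearson r over the group means. Protein paralogs were not searched, and SAM1 and SAM3 were added by name. Of the 32246 identifiers, 28942 were in the reference table, whose assembly differs, so no coordinates are given.

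Pairing of libraries by number was checked by the correlation of same-numbered libraries after the group means were subtracted. It was 0.12, 0.41 and 0.43 between GSs and NGSs at 6 h, and at other times not every pair exceeded 0.1. The labels give the numbers but no shared plant or day.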

Additional observations from a re-analysis of the deposited data

Results flagged for a closer look

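Named pathway genes whose response from 0 h differed between the GSs and NGSs by the test of the difference were GAD2 at 6 h (1.29 higher in GSs), nii1 at 6 h (-2.36), SAM3 at 24 h (1.47) and 48 h (1.79), and LOC100736473 at 48 h (-2.31), all on the log2 scale. GAD2 went from 135 ± 30.4 to 444 ± 56.9 FPKM in GSs and from 216 ± 33.6 to 297 ± 61.2 FPKM in NGSs (SD, n = 3). SAM3 went from 59.0 ± 23.5 FPKM at 0 h to 123 ± 12.8 FPKM at 48 h in GSs and from 119 ± 13 to 79.8 ± 39.2 FPKM in NGSs. LOC100736473 went from 646 ± 49.2 to 330 ± 48.3 FPKM by 48 h in GSs and from 207 ± 30.0 to 532 ± 130 FPKM in NGSs. At 0 h, the GSs and NGSs were called different for LOC100736473 (1.65) and SAM3 (-1.06), but LOC100736473 was not called with voom (adjusted p = 0.0678), nor SAM3 with the libraries compared alone (0.0792), nor either without some single libraries (up to 0.0801 and 0.139). All of them lost the call under at least 1 alternative: with the replicate block, nii1 had an adjusted p of 0.0527, and without a filter GAD2, SAM3 at 24 h and LOC100736473 had 0.0538, 0.0582 and 0.0504 (limma). SAM3 at 48 h had 0.0513 with the compared libraries alone.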

How the results depend on the processing

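The replicate block was fitted only for GSs against NGSs, for 6 h against 0 h and for the responses at 6 h. In these tests it changed no call of the 4 genes, with 1 of 24 tests of GSs against NGSs called. It says nothing about the salt tests and responses of later times. The pathway genes had 5 calls between GSs and NGSs with the block, against 3 without it. No step between time points has shared replicate numbers, and no paired fit was made for those. With the libraries compared alone, 0 of 24 and 1 of 20 were called for the 4 genes, and leaving out a library gave 0 to 1 of each. For the pathway genes, the responses had 2 calls without a filter and 8 on library totals against 5, and leaving out a library gave 0 to 8, and 0 to 7 between GSs and NGSs. Library totals as the scale moved the median of all genes by up to 0.37 and voom by up to 0.47 (NGSs, 12 h against 0 h). With voom, the NGS difference of GAD at 12 h was 3.33 against 2.70. On library totals, ArgJ in the GSs was at -0.96 at 6 h and -0.93 at 24 h and lost both calls, and GAD from 24 to 48 h in the GSs was at 0.93 (0.95 with voom); GAD from 12 to 24 h in the NGSs was called (-1.11, with voom -1.14), as was SAM2 from 6 to 12 h in the GSs with voom (1.01). With the libraries compared alone, ArgJ lost its GS calls of 24 and 96 h (adjusted p = 0.0922 and 0.0983, limma) and NADH-GOGAT that from 24 to 48 h (0.107). The sign turned on library totals and with voom for ArgJ between GSs and NGSs at 96 h (-0.0383, -0.0541) and from 24 to 48 h in the NGSs (-0.14, -0.14), for its responses at 6 h (0.0962, 0.0927), for GAD in the responses at 12 h (-0.154, -0.0806) and from 24 to 48 h in the NGSs (-0.18, -0.19), and for SAM2 from 12 to 24 h in the NGSs (-0.0789, -0.0814). None of these was a call. Uncalled differences whose sign turned when a library was left out were, for ArgJ, GSs at 12 h against 0 h (-0.0760 to 0.44), GSs against NGSs at 24 h (-0.37 to 0.16) and 96 h (-0.34 to 0.39), NGSs from 24 to 48 h (-0.16 to 0.37) and 48 to 96 h (-0.55 to 0.0604), and the responses at 6 h (-0.27 to 0.25) and 24 h (-0.0283 to 0.55). For GAD they were GSs against NGSs at 12 h (-0.89 to 0.20), NGSs from 24 to 48 h (-0.19 to 0.37) and 48 to 96 h (-0.43 to 0.13), and the responses at 12 h (-0.41 to 0.68) and 24 h (-0.0831 to 0.25). For NADH-GOGAT they were GSs at 24 h against 0 h (-0.66 to 0.0483), NGSs at 96 h against 0 h (-0.46 to 0.21), GSs against NGSs at 48 h (-0.13 to 0.30) and the responses at 12 h (-0.49 to 0.13). For SAM2 they were GSs at 48 h against 0 h (-0.20 to 0.23), GSs against NGSs at 12 h (-0.20 to 0.16), 24 h (-0.43 to 0.16) and 96 h (-0.33 to 0.55), the responses at 6 h (-0.15 to 0.51), GSs from 12 to 24 h (-0.11 to 0.36), and NGSs from 6 to 12 h (-0.0673 to 0.59), 12 to 24 h (-0.0012 to 0.48) and 24 to 48 h (-0.48 to 0.18). The cause was not tested. The alternatives of the pathway genes were added after seeing the data: over 78 called values, no alternative turned a sign, 111 of 498 values with a library left out and 38 of 412 others lost the call. The 3 libraries per group, with an SE of 0.35 to 0.42 for a difference between groups, limit the precision.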
